A study of Homo sapiens with 12 samples.

Results

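NCI-H520 cells derive from a human squamous carcinoma of the lung, and the 6 libraries described here are the 3 labelled L1_F_NVR and the 3 labelled CTRL_DMSO, out of 12 in the series. They were chosen with their low *FGGY* counts, and their place on the same side of the split of the 12 libraries, already known. L1_F stands for cells that carry *L1-FGGY*, a chimeric transcript of an L1 retrotransposon and the *FGGY* gene, overexpressed from a lentivirus, and CTRL was read as the same line with the empty vector. The libraries labelled NVR were given 450 μM NVR, described by the study as a reverse transcriptase inhibitor used against HIV, taken from a stock in DMSO, and the control libraries an equal volume of DMSO (0.2%), in both cases in medium replaced 5 h after seeding. The length of the treatment and whether equal replicate numbers share a passage are not given in the sources used here. The other 6 libraries are L1_F cells with 0.2% DMSO and L1_F cells with 10 μM of the 12-lipoxygenase inhibitor ML355. All 12 libraries were fitted together, so these 6 also shape the gene filter, scaling and spread behind every call. With the 6 libraries described here fitted alone, 4173 genes were called against 5316. All are described as 1 cell line, which was not tested, and nothing in the labels says that the replicates are separate cultures. The p-values therefore measure only the spread between the libraries of the fit, which may be technical. The 6 libraries held 21792376 to 27004768 counts.

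The label of the NVR libraries was set beside their values first. The groups were chosen with these values known, so their likeness is no separate check. *FGGY*, a carbohydrate kinase gene on chromosome 1 of hg38 from 59296638 to 59810647, was at 3.82, 3.40 and 2.99 CPM (counts scaled to a library of 1e6 reads, with TMM scaling of the library sizes) in replicates 1 to 3 of CTRL DMSO. It was at 4.10, 3.81 and 4.82 CPM in the 3 libraries labelled NVR. The groups overlapped, and the log2 fold change was 0.31 (SE 0.16, edgeR adjusted p = 0.132). *FGGY* averaged 287 CPM in L1_F DMSO, so the libraries labelled NVR lacked the overexpression that their L1_F label names. Correlations of log2 CPM between libraries pointed the same way, at 0.939 to 0.972 between the libraries labelled NVR and CTRL DMSO and at 0.706 to 0.743 between the libraries labelled NVR and L1_F DMSO. The split went beyond *FGGY*. *ALDH1A1* averaged 5900 CPM in CTRL DMSO, 2421 CPM in the libraries labelled NVR and 0 CPM in L1_F DMSO and with ML355. In the same order *WNT5A* went the other way, at 3.26, 3.18, 236 and 81.1 CPM. The first principal component of all 12 libraries held 78.9% of the variance and parted the same pairs of groups. The cause of this split was not tested. In the deposited count table the columns of both groups carry no vector name. The comparison with CTRL DMSO is therefore between groups that are alike in *FGGY*, and every direction given here is of the libraries labelled NVR. NVR and any other difference between these cultures cannot be told apart.

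Markers of the squamous lineage were low or absent. *SOX2* and *TP63*, transcription factors of the squamous lineage, were at 7.02 to 17.1 CPM and at 1.70 to 4.14 CPM over the 6 libraries. The keratins *KRT6A* and *KRT14* and the desmosomal cadherin *DSG3* had 0 counts in every one of them, and *KRT5* had 2 counts in 1 library and 0 in the rest. With 0 counts, levels up to 0.111 to 0.138 CPM per library would have gone undetected, counting error only. Of the markers of other cell types, blood and immune markers summed to 4.56 to 5.47 CPM in CTRL DMSO and 11.02 to 14.8 CPM in the libraries labelled NVR, and *CD14* was the called member (log2 fold change 1.47). *PTPRC*, the pan-leukocyte gene, was listed at 0 in all 6. Sums of the fibroblast and muscle markers were 23.5 to 28.9 CPM against 28.8 to 31.2 CPM, those of the endothelial markers 0.630 to 0.664 CPM against 0.384 to 0.700 CPM, and those of the alveolar and adenocarcinoma markers 4.69 to 5.84 CPM against 7.84 to 11.3 CPM. *ACTA2* (1.31) and *NAPSA* (1.04) rose among these, and *CDH5* fell to at most 3 counts in each library labelled NVR, at least 2.89-fold lower by the floor of 3 counts per library. *NAPSA* lost its call under total count scaling, with the replicate block and without any one of the 6 libraries other than NVR replicate 2. The part of these markers in the results was not tested.

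A cell enters S phase when cyclin-dependent kinases phosphorylate RB family proteins and free E2F transcription factors, which switch on the genes for licensing origins, copying DNA and supplying nucleotides. A later wave of genes, many with the CHR element in their promoters, builds the spindle and kinetochores for mitosis. CDK inhibitors such as p21, the product of the p53 target *CDKN1A*, hold this program back. Inflammatory, interferon and acute phase genes are transcribed in epithelial cells through NF-kB, STAT and IRF factors. In a bulk library a fall in the RNA of cycling cells can mean fewer such cells or less RNA per cell, which cannot be told apart.

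Of 17849 genes tested, 5316 differed between the libraries labelled NVR and CTRL DMSO at an adjusted p under 0.01, which is 29.8% of them. They split into 2593 genes that were higher (14.5%) and 2723 that were lower (15.3%) in the libraries labelled NVR. These shares are the background for every count of list members below. Of the called genes, 2344 changed by at least 1 on the log2 scale and 95 by at least 3. In 9438 genes (52.9% of those tested) the 3 values of one group did not overlap the 3 of the other, called or not. The median log2 fold change of all tested genes was 0.00 with TMM scaling and fell by 0.15 when libraries were scaled by their total count alone, so that each change below is relative to the bulk of the genes. Of 13878 protein-coding genes tested, 2550 were called lower and 2142 higher. Of 2442 lncRNA genes tested, 320 were called higher and 106 lower. The lncRNA share called higher was slightly under the 14.5% of all tested genes, and the share called lower was far under the 15.3%.

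**Figure D1:**
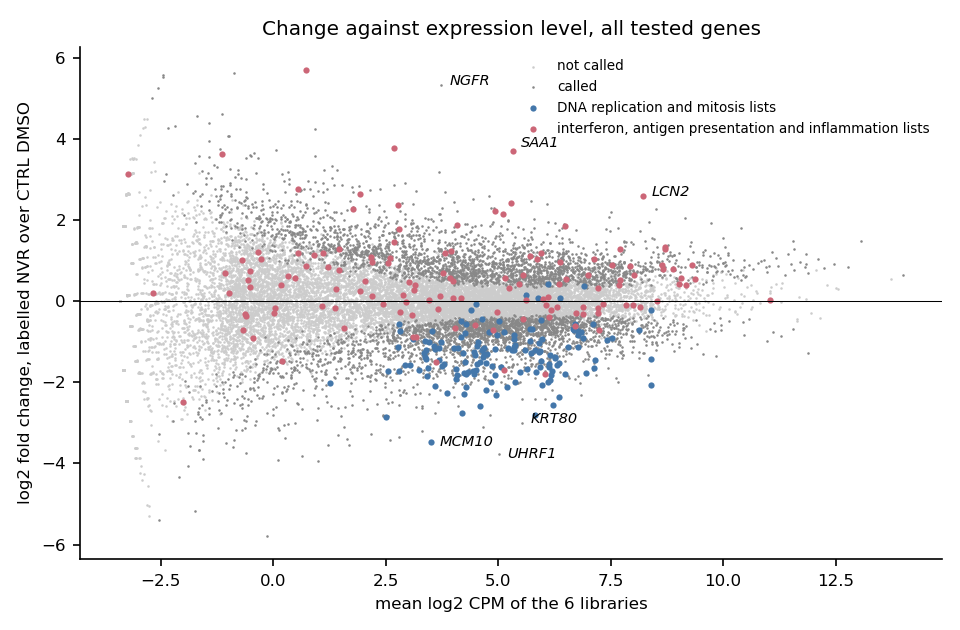
Log2 ratio of NVR-labelled to CTRL DMSO libraries against mean log2 CPM of the 6 libraries, with 1 point for each of the 17849 tested genes. Members of the DNA replication and mitosis lists (blue) lie almost all below 0, and members of the interferon, antigen presentation and inflammation lists (red) spread on both sides, with *CCL4*, *SAA2* and *SAA1* the highest of them.

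The 3 libraries labelled NVR were not equally far from the controls. On the first principal component of the 6 libraries, which held 72.2% of the variance, they stood at 52.7, 30.1 and 74.8, and the controls at -38.3, -56.3 and -62.9. Among the called genes, NVR replicate 2 was the closest of the 3 to the control mean in 3691 (69.4%), and NVR replicate 3 was the farthest in 3614 (68.0%). Transcript length moved with this order. Against the control mean, the shortest of 4 equal length classes of genes had a median of 0.26, 0.08 and 0.44 on the log2 scale in NVR replicates 1 to 3, and the longest class -0.20, -0.05 and -0.32. The controls also differed along length, from 0.15 in the shortest class of replicate 1 to -0.10 in that of replicate 3. Across the shortest class 792 genes were called higher and 230 lower, and across the longest class 413 and 1037. The part of transcript length in the results was not tested, but the median of each list was also computed after centring every gene on tested genes of like length and GC content, and is given beside some of the lists.

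Genes of DNA replication were lower nearly throughout. Of 59 genes of the replication machinery, 55 were lower and 0 higher, with a median log2 fold change of -1.59 against 0.00 over all tested genes. The background is 15.3% of tested genes called lower. *MCM10*, which helps to activate the replicative helicase, lies on chromosome 10 from 13161558 to 13211110 and was at 35.1, 37.3 and 39.3 CPM in CTRL DMSO. In the libraries labelled NVR it was at 3.75, 3.18 and 3.23 CPM. All 3 values lay far under every control, lower by the means by 10.99 times (log2 fold change -3.46, SE 0.13, edgeR adjusted p = 1.72e-10). *CDC6*, which loads the helicase onto origins, was at 67.4, 69.3 and 68.1 CPM against 13.5, 14.4 and 13.5 CPM (-2.30, adjusted p = 3.68e-10). *CDC45*, a part of the active helicase, was at 63.0, 55.7 and 57.0 CPM against 9.15, 9.99 and 10.1 CPM (-2.58, adjusted p = 9.21e-10).

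By role, 17 of 18 origin recognition and licensing genes fell, with a median of -1.78, and the exception was *ORC4* (-0.07). All 10 origin firing genes fell (median -1.58, from -2.75 for *GINS2* to -0.80 for *DBF4*). Of 11 genes for polymerases and primase 9 fell (median -1.59), while *POLD2* (-0.21) and *POLE4* (0.41) did not pass the test. Of 20 genes for the sliding clamp, its loaders and strand processing 19 fell (median -1.25), and *RPA3* (0.07) did not pass. The sliding clamp *PCNA* moved less than its loader subunit *RFC3* (-0.72 against -2.28). These counts were at least 15, 10, 9 and 19 with any library left out. For the licensing genes the fall was as large in NVR replicate 2, the library nearest to the controls. Their median was -1.77, -1.80 and -1.81 against the control mean in NVR replicates 1 to 3. Origin firing genes fell least in NVR replicate 2 (-1.54, -1.40 and -1.59), and the polymerase and clamp roles fell least in NVR replicate 3.

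**Figure D2:**
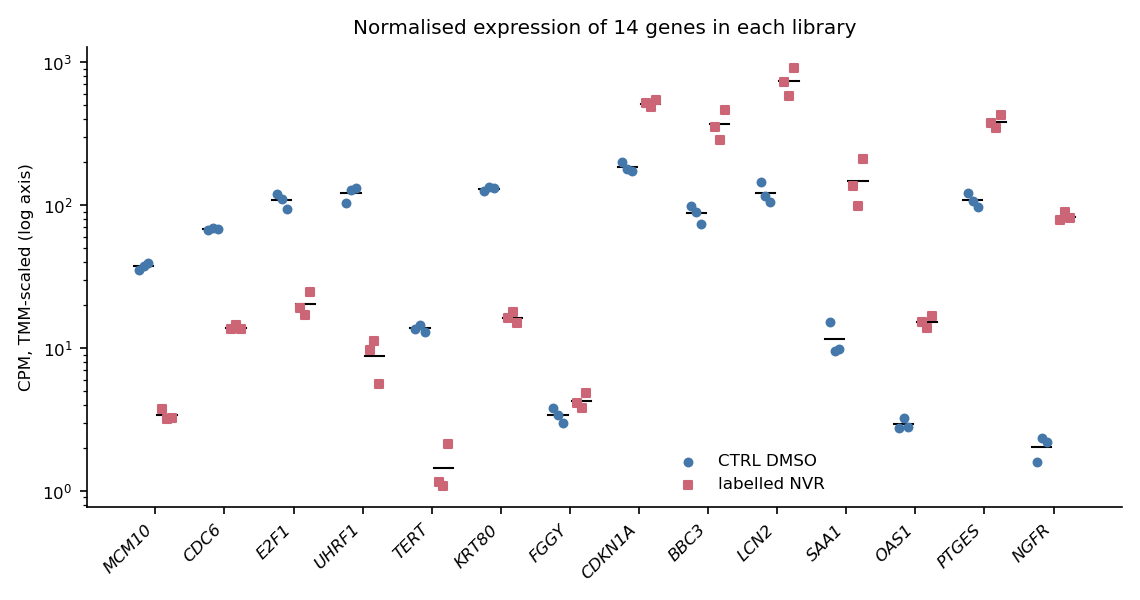
Expression of 14 genes in CPM on a log axis, with 1 point per library (circles, CTRL DMSO; squares, labelled NVR; replicates 1 to 3 from left to right) and a line at the mean of each group of 3. Groups are apart for every gene shown except *FGGY*.

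Many promoters of this program carry an E2F site, spelled here as TTTCCCGC, TTTCGCGC, TTTGCCGC or TTTGGCGC on either strand, and mitotic promoters often carry the CHR, TTTGAA, together with CCAAT boxes. RefSeq promoters (GRCh38.p14) were searched over the 250 bases before the start. Of the 55 replication genes that fell, 47 had a promoter in the table, and 12 of these (25.5%) held an E2F match, against 2.79% of all 27305 promoters and 4.21% of those of tested genes. A CCAAT was in 26 (55.3%), and none held a CHR, against 13.6% of all promoters and 8.44% of those of tested genes. Of the 77 mitotic genes that fell, 64 had a promoter, and 25 (39.1%) held a CHR, 40 (62.5%) a CCAAT and 6 (9.38%) an E2F match. A CCAAT was in 33.0% of all promoters and 34.6% of those of tested genes. These shares are descriptions of letters and not of binding. The promoters below are examples from called members of each list with a small adjusted p that held the match, which is in capitals. Not every member of a list was considered for printing. The E2F match is shown for *MCM3* (chr6:52284743-52284992, minus strand) and *GINS2* (chr16:85688955-85689204, minus strand). The CHR is shown for *HJURP* (chr2:233854536-233854785, minus strand) and *ESPL1* (chr12:53268049-53268298, plus strand).
MCM3: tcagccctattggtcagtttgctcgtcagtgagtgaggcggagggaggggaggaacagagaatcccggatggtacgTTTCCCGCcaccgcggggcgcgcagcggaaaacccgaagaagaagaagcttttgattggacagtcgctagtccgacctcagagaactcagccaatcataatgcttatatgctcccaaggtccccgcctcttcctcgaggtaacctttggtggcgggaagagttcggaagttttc
GINS2: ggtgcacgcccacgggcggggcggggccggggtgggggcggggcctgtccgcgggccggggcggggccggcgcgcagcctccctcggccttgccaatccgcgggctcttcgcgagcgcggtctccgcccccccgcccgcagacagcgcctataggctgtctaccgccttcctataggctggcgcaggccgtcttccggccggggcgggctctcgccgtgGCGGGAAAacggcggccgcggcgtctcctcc
HJURP: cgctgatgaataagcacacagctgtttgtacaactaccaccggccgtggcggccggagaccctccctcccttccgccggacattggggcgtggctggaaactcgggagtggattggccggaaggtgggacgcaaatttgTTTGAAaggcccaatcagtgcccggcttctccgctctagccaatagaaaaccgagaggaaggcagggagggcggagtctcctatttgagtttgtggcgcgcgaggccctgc
ESPL1: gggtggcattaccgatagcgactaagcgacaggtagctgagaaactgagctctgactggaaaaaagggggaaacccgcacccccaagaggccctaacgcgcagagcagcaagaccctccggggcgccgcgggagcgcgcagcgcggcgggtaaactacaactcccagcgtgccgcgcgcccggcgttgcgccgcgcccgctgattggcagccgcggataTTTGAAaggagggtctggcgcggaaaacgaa
The E2F match lies 174 bases before the start in *MCM3* and 31 bases before it in *GINS2*. The *HJURP* window holds 4 CCAAT matches besides the CHR, and that of *ESPL1* holds 1. *MCM3* fell by 1.96 and *GINS2* by 2.75 on the log2 scale.

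The genes that feed S phase fell with it. Both subunits of ribonucleotide reductase, which makes deoxynucleotides, were lower: *RRM2* went from 99.3, 87.5 and 82.0 CPM to 23.6, 19.5 and 24.0 CPM (-2.003, edgeR adjusted p = 1.26e-08) and *RRM1* changed by -1.603. Of 11 genes of deoxynucleotide synthesis 6 fell and 1 rose, the deoxynucleotide hydrolase *SAMHD1* (0.48). Of 17 genes of folate, purine and pyrimidine synthesis 11 fell and 1 rose, *IMPDH2* (1.08), with a median of -0.74.

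The E2F and RB family fell in most of its members, among them activators and repressors. *E2F1*, an activator of S phase genes, was at 120, 110 and 94.1 CPM in CTRL DMSO and at 18.9, 17.1 and 24.6 CPM in the libraries labelled NVR (-2.42, SE 0.15, edgeR adjusted p = 1.63e-08). *E2F2*, another activator, went from 20.8, 22.2 and 22.5 CPM to 2.70, 1.89 and 1.81 CPM (-3.36, adjusted p = 6.78e-09). The repressors *E2F7* (-2.31) and *E2F8* (-2.62) fell as well. Of the 20 genes of the family 14 fell and 0 rose, and *E2F4*, which acts with the RB relatives in resting cells, had a value of -0.26 and did not pass. Of 18 cyclins, CDKs and CDC25 phosphatases 13 fell, among them *CDC25A* (-2.52), *CDK2* (-1.48), *CCNA2* (-1.56) and *CCND3* (-1.40), while *CCND1* at -0.32 and *CCNE2* at -0.60 did not pass. The member that rose, *CCND2*, had a mean of 0.354 CPM in the libraries labelled NVR and at most 1 count in each control. Of 7 CDK inhibitor genes *CDKN1A* and *CDKN2D* (0.83) rose and *CDKN2C* (-0.44) fell. *CDKN2A* and *CDKN2B* had at most 1 count in any of the 6 libraries.

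Mitotic genes fell in all roles listed. Of 83 genes 77 were lower and 0 higher, with a median of -1.21 against 0.00 over all tested genes and 15.3% called lower among them. *HJURP*, which deposits the centromeric histone, was at 129, 137 and 144 CPM against 34.8, 37.9 and 30.6 CPM (-1.98, SE 0.11, edgeR adjusted p = 5.55e-09). *ESPL1*, the separase that cuts cohesin at anaphase, was at 75.2, 85.9 and 86.7 CPM against 21.9, 22.97 and 17.3 CPM (-1.99, adjusted p = 1.15e-08). *KIF22*, a chromosome-arm kinesin, was at 129, 121 and 120 CPM against 46.6, 48.7 and 45.6 CPM (-1.39, adjusted p = 3.55e-08). The groups were well apart in each of these.

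All 12 mitotic kinesins (median -1.34) and all 17 condensin and cohesin genes (median -1.45) fell. So did 25 of 28 kinetochore genes (median -1.16) and 23 of 26 kinases and spindle checkpoint genes (median -0.99). Within the last role the values ran from -2.27 for *BUB1B*, a checkpoint protein, to 0.38 for securin, *PTTG1*, which did not pass the test. *AURKA* (-0.70), *PLK1* (-0.90) and *CCNB1* (-0.88) had smaller values than *MCM10* or *E2F1*, and so did *PCNA* and *DBF4* of the replication list. *MCM10* was named as one of the largest falls of all. The difference between genes was not tested. No mitotic list role lost more than 2 of its calls when any library was left out. Of 15 replication-dependent histone genes tested, whose transcripts mostly lack a poly(A) tail, 4 were called higher and 0 lower, beside 14.5% and 15.3% of all tested genes. The higher ones include *H1-2* (1.49), *H2AC6* (0.82) and *H2BC21* (1.05).

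**Figure D3:**
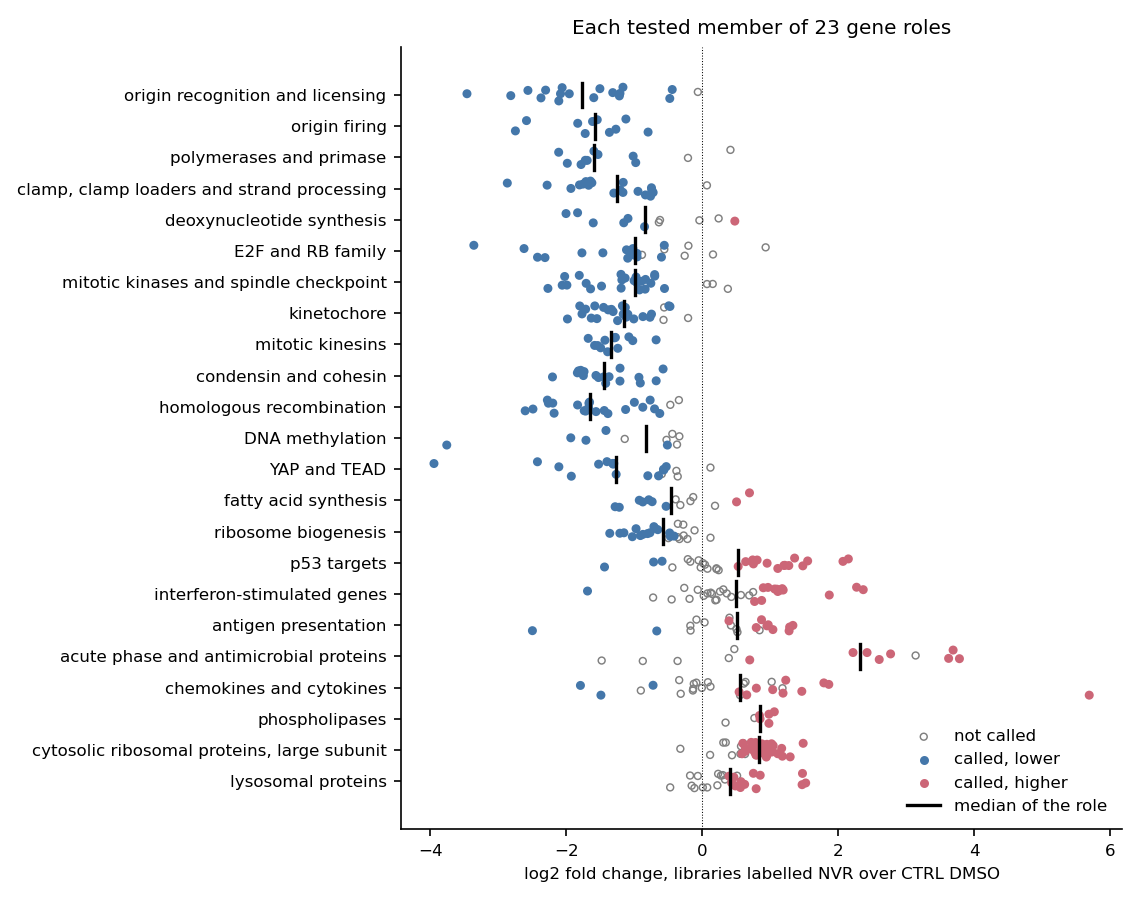
Change on the log2 scale of each tested member (points) of 23 gene roles in NVR-labelled over CTRL DMSO libraries, with a bar at the median. Filled points passed an adjusted p of 0.01. The replication, mitosis and recombination roles lie left of 0 nearly whole, and the acute phase role has the highest median, 2.32.

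Repair genes that act with replication followed the same direction. Of 23 homologous recombination genes 21 fell (median -1.66), and *NBN* (-0.34) was among those that did not pass. *EXO1*, a nuclease of resection and mismatch repair, was at 29.3, 29.0 and 30.4 CPM against 5.20, 5.33 and 5.26 CPM (-2.49, edgeR adjusted p = 3.68e-10). Of 13 Fanconi genes 9 fell, with *FANCA* at -2.04. Of 7 mismatch repair genes 3 fell, with *MSH6* at -1.23. Of 13 checkpoint genes 7 fell, with the WEE family kinase *PKMYT1* at -2.42, while *CHEK2* (0.32) and *ATM* (-0.26) did not pass. *CLSPN*, the adaptor of the replication checkpoint, was among the 10 largest falls (-2.87).

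The largest fall of a gene with at least 10 CPM was in *UHRF1*, which brings the maintenance DNA methyltransferase to newly copied DNA. It lies on chromosome 19 from 4903080 to 4962154 and went from 104, 127 and 132 CPM to 9.70, 11.3 and 5.59 CPM (-3.76, SE 0.19, edgeR adjusted p = 2.49e-09). The methyltransferase itself, *DNMT1*, changed by -1.42 and the chromatin remodeller *HELLS* by -1.93. *DNMT3A* (-0.44), *DNMT3B* (-0.53) and *TET2* (-0.37) did not pass, and 5 of the 10 DNA methylation genes fell. Of 18 genes of histone methylation and the HUSH complex 8 fell, with *EZH2* at -1.17, and its paralogue *EZH1* rose (0.58). *TERT*, the telomerase catalytic subunit, went from 13.6, 14.5 and 13.0 CPM to 1.15, 1.07 and 2.14 CPM (-3.26, SE 0.26, adjusted p = 1.62e-07).

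*CDKN1A*, whose product p21 inhibits cyclin-dependent kinases, rose. It lies on chromosome 6 from 36676460 to 36687337 and was at 200.3, 179 and 174 CPM in CTRL DMSO and at 515, 483 and 542 CPM in the libraries labelled NVR (1.48, SE 0.11, edgeR adjusted p = 5.3e-08). Of 29 p53 targets 15 rose and 3 fell, with a median of 0.53 against 0.00 over all tested genes and 14.5% of them called higher. *BBC3*, the pro-apoptotic PUMA, went from 99.3, 89.0 and 74.4 CPM to 353, 286 and 463 CPM (2.07, adjusted p = 5.66e-06). *TP53INP1*, a stress-induced p53 cofactor, went from 4.75, 6.41 and 7.09 CPM to 25.3, 28.8 and 26.9 CPM (2.15, adjusted p = 1.81e-06). *MDM2* (1.11), *GDF15* (1.55) and *BTG2* (1.36) rose too. *PLK2* (-1.44), *SESN2* (-0.72) and *PMAIP1* (-0.59) fell, and without CTRL replicate 2 or NVR replicate 1 the falls numbered 1. In the BCL2 family, whose median of 0.29 became 0.01 when centred on genes of like length and GC content, 6 of 15 genes rose and 2 fell, *MCL1* (-0.49) and *PMAIP1*, and *BMF*, *BIK* and *BAX* were among those that rose (2.24, 0.92 and 0.74). Without CTRL replicate 2, in the fit of the 6 libraries alone or with total count scaling the count that rose was 3. Of 17 caspases and death receptors 5 rose, with *CASP4* at 1.04 and *CASP9* at 0.74, and *BIRC2* (-0.62) fell.

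Targets of YAP and TEAD, which respond to cell attachment and the actin cytoskeleton, were lower. Of 19 genes 15 fell and 0 rose, with a median of -1.27, beside 15.3% of all tested genes called lower. The falls numbered 12 without CTRL replicate 2. Against the control mean the median was -1.23, -0.72 and -1.45 in NVR replicates 1 to 3, so the fall was smallest in the library nearest to the controls. *AJUBA*, a LIM protein at junctions, went from 192, 210.0 and 212 CPM to 51.4, 62.8 and 47.4 CPM (-1.93, edgeR adjusted p = 2.12e-08). *AXL*, a receptor kinase, went from 248, 276 and 290.2 CPM to 102, 107 and 99.4 CPM (-1.40, adjusted p = 3.32e-08). The classical targets *CCN1* and *CCN2* both changed by -1.31 and *ANKRD1* by -3.94, the latter at a mean of 7.17 CPM in CTRL DMSO. *YAP1* itself had a value of -0.38 and did not pass.

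Of 12 genes for the EGFR family and its ligands 4 fell, 1 rose and 7 did not pass, with a median of -0.13. *NRG1*, neuregulin 1, went from 225, 262 and 285 CPM to 47.6, 59.1 and 49.0 CPM (-2.31, edgeR adjusted p = 5.68e-09), and *EREG* (-1.35), *AREG* (-1.22) and *EGFR* (-1.11) fell. *NRG2* (1.10), another ligand, was the member that rose. Among 23 immediate early and feedback genes 6 rose and 3 fell. *DUSP6* (1.31), *IER2* (1.16) and *JUNB* (1.00) were higher, and *FOSL1* (-1.41), *FOSL2* (-1.01) and *JUN* (-0.55) were lower. *MYC* changed by -0.70.

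Matrix and cytoskeletal genes moved in both directions, beside 14.5% of all tested genes called higher and 15.3% lower. *THBS1* (-1.93) and the basement membrane collagen *COL4A1* (-1.61) were among the falls. Of 21 collagens and laminins 8 fell and 2 rose, *COL6A2* (1.21) and *LAMB2* (0.62). Of 12 integrins *ITGB1* (-1.05) and *ITGB8* (-0.89) fell and *ITGA3* (0.52) rose, counts close to those shares. Of 16 genes of matrix remodelling 5 fell and 4 rose, with *TIMP1* (1.45) and *MMP14* (1.22) among the rises. The cytoskeletal genes *ACTN4*, *FLNA* and *ANXA2* and the keratin *KRT8* were, with *ALDH1A1*, the 5 largest losses in CPM, a scale without regard to length. *ACTN4* went from 2669, 2870 and 2879 CPM to 1436, 1595 and 1265 CPM (-0.97). *KRT8* was called in the fit of all 12 libraries (-0.86, adjusted p = 0.000623) and lost its call in the fit of the 6 alone.

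Epithelial and squamous genes gave no single direction, beside 14.5% of all tested genes called higher and 15.3% lower. Of 16 epithelial junction and mesenchymal genes tested 4 rose and 6 fell. Of 12 cornified envelope and desmosome genes 3 rose and 3 fell, and of 13 squamous lineage regulators 1 rose and 3 fell. *KRT80*, a keratin of epithelial differentiation, went from 126, 133 and 132 CPM to 16.2, 17.8 and 14.9 CPM (-3.00, SE 0.11, edgeR adjusted p = 1.72e-10). Of 12 keratins tested *KRT8*, *KRT80* and *KRT4* (-2.36) fell and *KRT10* (0.70) rose, and the falls numbered 1 in the fit of the 6 libraries alone and 5 with total count scaling. The tight junction gene *CLDN1* went from 115 ± 7.49 CPM (SD, n = 3) to 43.3 ± 4.69 CPM (-1.41), whereas *CLDN3* (0.95) and *CLDN4* (1.25) rose. The E-cadherin gene *CDH1* fell (-1.53) and so did *CDH2* (-0.64), *FN1* (-0.75) and *ZEB2* (-1.10), while *SNAI1* (1.24) and *TWIST1* (0.77) rose. In the desmosome *PKP3* (-1.47), *DSC2* (-1.33) and *DSP* (-0.79) fell and *JUP* (1.04) rose, and without NVR replicate 2 the falls of the cornified envelope and desmosome role numbered 5. *KLF5* (-0.90) fell among squamous regulators, and *TP73* (-2.47), *GRHL3* (-2.79) and *BCL11A* (2.004) were called at under 2 CPM.

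Acute phase and antimicrobial genes had the highest median of all roles, 2.32 over 14 tested genes, of which 8 rose and 0 fell. *SAA1*, serum amyloid A, lies on chromosome 11 from 18266260 to 18269977 and was at 15.3, 9.49 and 9.81 CPM in CTRL DMSO and at 136, 99.0 and 210.3 CPM in the libraries labelled NVR. That is 12.9-fold by the means (3.69, SE 0.24, edgeR adjusted p = 1.97e-08). *SAA2* went from 1.81, 1.48 and 1.84 CPM to 22.1, 16.6 and 32.2 CPM (3.78, adjusted p = 5.1e-08). The 2 genes are near copies of each other, so reads between them are uncertain. *LCN2*, the iron-sequestering lipocalin, went from 146, 116 and 105 CPM to 730, 583 and 914 CPM (2.60, adjusted p = 5.22e-08). The secreted protease inhibitors *PI3* (2.42) and *SLPI* (2.22) and the calprotectin genes *S100A8* (3.62) and *S100A9* (2.77) rose, the last pair at means of 1.42 and 3.78 CPM. *CP* (-0.87) and *FGB* (-1.48) did not pass. With at least 10 counts required in every library the rises numbered 3. These are mostly short genes, and NVR replicate 3 was highest and replicate 2 lowest for *SAA1*, *SAA2* and *LCN2*. Centred on genes of like length and GC content, the median was 1.78.

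Of 28 chemokine and cytokine genes 10 rose and 3 fell (median 0.55). *CCL5* (1.86), *CSF3* (1.79), *IL1B* (1.46), *IL6* (1.23), *IL18* (1.19) and *CXCL3* (1.03) were among the rises, and *IL11* (-1.79), *CSF2* (-1.49) and *CXCL16* (-0.72) fell. *CCL4* had the largest value, 5.69, from a mean of 0.187 to one of 9.89 CPM. It has a near-identical copy in the genome and is uncertain. Of 18 NF-kB subunits and feedback genes *BCL3* (1.28), *NFKBIA* (0.89), *ZC3H12A* (0.89) and *IER3* (0.58) rose and *TNFAIP3* (-0.72) and *TRAF1* (-0.58) fell. The median of this role was 0.07, and -0.07 with total count scaling. Over all tested genes 14.5% were called higher and 15.3% lower.

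Interferon-stimulated genes rose in part. Of 32 tested 13 rose and 1 fell, with a median of 0.50, against 14.5% of all tested genes called higher. *OAS1*, an oligoadenylate synthetase that senses double-stranded RNA, went from 2.77, 3.24 and 2.80 CPM to 15.2, 13.8 and 16.7 CPM (2.37, SE 0.15, edgeR adjusted p = 1.54e-08). *IFI44* went from 1.22, 1.602 and 1.69 CPM to 7.95, 7.25 and 6.63 CPM (2.27, adjusted p = 2.22e-08). *IRF7*, the regulator that amplifies the response, went from 17.5, 17.3 and 15.1 CPM to 72.0, 55.2 and 93.0 CPM (2.14, adjusted p = 2.66e-07). *IFI6* (1.87), *ISG15* (1.18) and *IFIT3* (1.06) rose, and *OAS3* fell (-1.69) from a mean of 64.2 to one of 19.9 CPM. Among 20 sensors and signalling genes 5 rose, with the inhibitor *SOCS1* at 2.64, and *CGAS* (-0.89) and *JAK1* (-0.61) fell, and 2 rose with total count scaling. In the fit of the 6 libraries alone 8 interferon-stimulated genes were called higher.

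Of 20 antigen presentation genes 9 rose and 2 fell (median 0.51). The class I genes *HLA-E* (1.28), *HLA-B* (0.97), *HLA-F* (0.95) and *HLA-C* (0.87), with their light chain *B2M* (0.79) and the immunoproteasome subunit *PSMB9* (1.04), were higher. Reads of class I genes are shared between them and with pseudogenes, so the split is uncertain. The trimming peptidase *ERAP1* (-0.67) and the ligand *PDCD1LG2* (at least 2.66-fold, at under 1 CPM) were lower.

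Of 11 complement factors *C1R* (0.57), *C4A* (1.71), *CFD* (1.36) and *C8G* (1.62) rose and 0 fell, and 2 rose without CTRL replicate 3 or with at least 10 counts required in every library. Among 9 regulators *CD55*, decay-accelerating factor, went from 36.1, 40.0 and 39.7 CPM to 82.5, 90.6 and 78.9 CPM (1.12, edgeR adjusted p = 4.7e-06), and *CLU* (1.14) also rose. *C4BPB* fell to at most 3 counts in each library labelled NVR, at least 9.63-fold lower by the floor of 3 counts per library.

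Genes that restrict L1, the retrotransposon the study addresses, gave 4 rises and 3 falls among 16 tested, beside 14.5% and 15.3% of all tested genes. The rises numbered 2 without CTRL replicate 2, CTRL replicate 3, NVR replicate 1 or NVR replicate 3 and 1 in the fit of the 6 libraries alone, and the falls 5 with total count scaling. *BST2* (1.15), *RNASEH2C* (0.74) and *SAMHD1* (0.48) were among the rises. *APOBEC3B*, a cytidine deaminase, went from 11.9, 11.4 and 11.03 CPM to 3.30, 3.66 and 2.41 CPM (-1.86, edgeR adjusted p = 9.02e-07), and *RNASEH2A* (-0.94) and *APOBEC3C* (-0.49) fell. The median of the list was 0.04, and -0.12 with total count scaling, and L1 elements were not counted as features of their own.

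The arachidonic acid pathway, in which phospholipases free the fatty acid and lipoxygenases or cyclooxygenases oxidise it, was the metabolic pathway of interest to the study. Of 7 phospholipase genes 5 rose and 0 fell (median 0.85), and *PLA2G15*, a lysosomal phospholipase, went from 11.3, 12.0 and 11.3 CPM to 21.5, 23.1 and 23.6 CPM (0.98, edgeR adjusted p = 1.11e-05). *ALOX5*, 5-lipoxygenase, was at 2.10, 1.88 and 1.65 CPM against 4.75, 4.11 and 4.001 CPM (1.19, SE 0.26, adjusted p = 0.00189), and lost its call without CTRL replicate 2, CTRL replicate 3 or NVR replicate 1. *ALOX12*, the target of ML355, was at 5.84, 6.45 and 5.94 CPM against 4.95, 6.44 and 4.44 CPM, which overlap (-0.20, adjusted p = 0.472). *ALOX15* had at most 3 counts in any of the 6 libraries. *GPR31*, the receptor of the 12-lipoxygenase product, had 0 counts in all 6. *LTA4H* (0.81) and *LTC4S* (1.31) of leukotriene synthesis rose, which with *ALOX5* makes 3 of 8 in this role, and 1 without CTRL replicate 2 or CTRL replicate 3.

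In the prostaglandin branch *PTGES*, prostaglandin E synthase, went from 121, 107 and 97.8 CPM to 373, 345 and 424 CPM (1.81, SE 0.12, edgeR adjusted p = 3e-08). *HPGD*, which degrades prostaglandins, went from 131, 131 and 134 CPM to 60.7, 60.9 and 53.2 CPM (-1.18, adjusted p = 7.13e-07). *PTGS2*, the inducible cyclooxygenase, rose by 0.74 and *CBR1* by 0.67, and 1 of the 3 rises was called with total count scaling. Of 7 eicosanoid receptor genes 0 rose, and the thromboxane receptor *TBXA2R* (-1.999) was the one that fell, at under 2 CPM.

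In the Wnt pathway, the signal the study places downstream, 6 of 56 genes tested rose and 7 fell, with a median of -0.18, beside 14.5% and 15.3% of all tested genes. *WNT5A* was at 2.73, 3.79 and 3.26 CPM against 3.25, 4.11 and 2.19 CPM (-0.01, edgeR adjusted p = 0.978), and *CTNNB1*, beta-catenin, at 130.2, 143 and 145 CPM against 151, 188 and 111 CPM (0.10, adjusted p = 0.608). Both pairs of groups overlapped. The study also names TCF4 among its Wnt components. The gene with the symbol *TCF4*, on chromosome 18, was matched by symbol alone, and whether the study means this gene was not checked. This gene was lower in every library labelled NVR than in every control (-0.64, adjusted p = 0.0154) but missed the threshold. It passed with limma voom, DESeq2 and total count scaling and without ML355 replicate 2. *WNT3A* was at most 0.300 CPM and was not tested. The Wnt inhibitor *DKK1* went from 117, 117 and 121 CPM to 45.2, 48.9 and 34.3 CPM (-1.46, adjusted p = 9.16e-07), and *TCF7* fell (-1.25). *FZD4* (1.32), *FZD7* (0.89) and *FZD9* (1.44) rose among receptors and *ROR1* (-1.42) fell. Of 12 ligands tested *WNT6* (1.53) rose and *WNT3* (-1.04) and *WNT10B* (-1.64) fell. *USP24*, a deubiquitinase the study ties to GPR31, changed by -0.56 (adjusted p = 0.00283) and lost its call in the fit of the 6 libraries alone and without CTRL replicate 2, CTRL replicate 3, NVR replicate 1 or NVR replicate 3.

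Of 10 cytochromes P450, enzymes of drug and lipid oxidation, 5 rose and 0 fell (median 0.73), beside 14.5% of all tested genes called higher. The rises numbered 3 without CTRL replicate 2 or with total count scaling and 2 with at least 10 counts required in every library. *CYP4F12* went from 5.38, 5.12 and 4.56 CPM to 21.1, 16.8 and 25.1 CPM (2.06, edgeR adjusted p = 4.32e-07), *CYP3A5* rose by 1.55, *CYP4F11* by 0.83 and *CYP1B1* by 0.69, and *CYP2J2* was called at a mean of 0.370 CPM. Of 14 conjugation and export genes 6 rose, with the epoxide hydrolase *EPHX1* at 1.15, and 1 fell. That was *ALDH1A1*, the retinal dehydrogenase, which went from 5860, 5878 and 5961 CPM to 2472, 2721 and 2071 CPM (-1.28, adjusted p = 2.24e-05). Of 17 retinoid genes tested 3 rose, 2 fell and 12 were not called (median -0.05), counts close to the 14.5% and 15.3% of all tested genes. *DHRS3* (1.45), *RARRES1* (1.03) and *PLAAT4* (1.25) rose and *CYP26A1* (-2.17) fell with *ALDH1A1*.

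NRF2 targets had 4 rises and 5 falls in 25 (median 0.02, and -0.14 with total count scaling), beside 14.5% and 15.3% of all tested genes. The rises numbered 2 and the falls 2 without CTRL replicate 2, 2 and 3 without CTRL replicate 3, and 2 and 1 in the fit of the 6 libraries alone, and the falls 2 without NVR replicate 1 and 3 without NVR replicate 3 or with DESeq2 size factors. *AKR1C1* went from 284, 243 and 230.2 CPM to 572, 455 and 680.1 CPM (1.17, edgeR adjusted p = 1.83e-05), with uncertainty from its near-identical relatives, and *OSGIN1* (1.02) rose, while *HMOX1* (-0.47), *GCLC* (-0.45) and *UGDH* (-0.92) fell. The metallothioneins *MT2A*, *MT1X* and *MT1F*, which bind metals, rose by 1.81, 1.996 and 1.16, and *MT2A* was at 948, 685 and 598 CPM against 2530, 1698 and 3595 CPM. These are short genes, with NVR replicate 3 highest, and the median of the 5 metallothionein and zinc export genes tested went from 1.16 to 0.71 when centred on genes of like length and GC content. With at least 10 counts required in every library 1 of them was called higher. In the ATF4 arm of the stress response 4 of 23 genes rose and 7 fell: *STC2*, a secreted stress hormone, went from 409, 405 and 403 CPM to 97.8, 105 and 104 CPM (-1.99, adjusted p = 6.78e-09), *TRIB3* changed by -0.98 and *ATF5* by 1.20. Of 21 endoplasmic reticulum chaperones and sensors *DNAJB9* (0.56) and *ATF6* (0.43) rose and *CANX* (-0.55) and *XBP1* (-0.46) fell. Among 14 heat shock genes *HSPA1A* (1.79), *HSPA1B* (1.98) and *HSPA8* (0.53) rose and *HSP90AA1* (-0.60) and *HSP90AB1* (-0.53) fell. The first pair are near copies, and the count of rises was 0 without CTRL replicate 3 and 1 without CTRL replicate 2, NVR replicate 2 or NVR replicate 3.

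Protein synthesis genes split in opposite ways. Of 44 large subunit ribosomal proteins 34 rose (median 0.83), and of 32 small subunit ones 29 rose (median 0.88), with 0 falls in either. Of 24 ribosome biogenesis genes 15 fell and 0 rose (median -0.58), with *NOLC1* at -1.36, *UTP4* at -1.21 and *DKC1* at -1.15. *RPL28* was at 2379, 1696 and 1512 CPM against 4903, 3461 and 7250 CPM (1.48, SE 0.24, edgeR adjusted p = 0.000177), so the spread between libraries of a group was wide. Ribosomal protein genes took 8.58%, 6.996% and 6.55% of all counts in CTRL DMSO and 12.3%, 9.95% and 14.2% in the libraries labelled NVR. Without CTRL replicate 3 there were 12 and 10 rises in the large and small subunit, without CTRL replicate 2 14 and 12, and in the fit of the 6 libraries alone 8 and 4. Without NVR replicate 1 there were 22 and 19, and without NVR replicate 3 21 and 16. The medians were 0.66 and 0.71 with total count scaling and 0.65 and 0.70 when centred on genes of like length and GC content. Many of these genes have processed pseudogenes, and reads shared with them are uncertain.

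**Figure D4:**
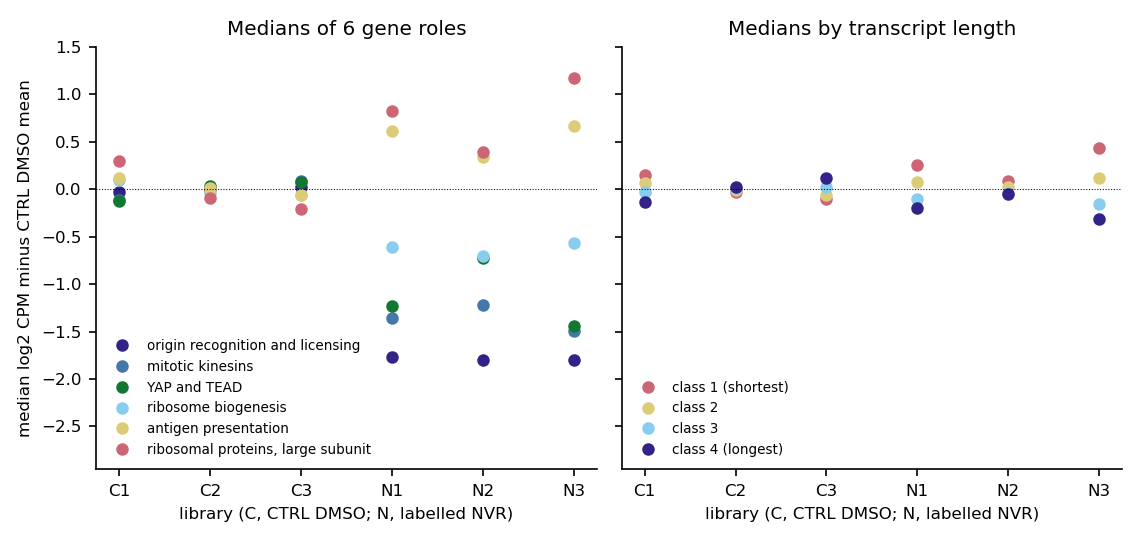
Median log2 CPM of a gene set minus the CTRL DMSO mean, in each of the 6 libraries, for 6 gene roles (left) and for the 4 classes of transcript length (right). Licensing genes are near -1.8 in all 3 libraries labelled NVR, whereas large subunit ribosomal proteins differ among the libraries of each group in the same order as the shortest class of genes.

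Mitochondrially encoded RNA took 4.21% to 4.51% of counts in CTRL DMSO and 6.19% to 6.74% in the libraries labelled NVR. *MT-RNR2*, the large mitochondrial rRNA, had the largest gain in CPM, from 5661, 4876 and 4764 CPM to 14630, 12540 and 15660 CPM (1.49, edgeR adjusted p = 7.67e-07). Of 13 mRNAs 5 rose and 0 fell (median 0.33), *MT-ND6* (1.14), *MT-CO2* (0.92), *MT-ATP6* (0.84), *MT-ND4* (0.81) and *MT-CO1* (0.64). Centred on length and GC content the median was 0.06. *FTL*, the ferritin light chain, also gained among the top 5, from 6445, 4994 and 4498 CPM to 9486, 7265 and 11690 CPM (0.84, adjusted p = 0.00191). *FTL* and *MT-CO1* lost their calls in the fit of the 6 libraries alone and without CTRL replicate 2, and *FTL* also without CTRL replicate 3.

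Of 26 lysosomal genes 13 rose, with 0 falls and a median of 0.41. *GRN*, progranulin, went from 433, 366 and 343 CPM to 1034, 835 and 1290 CPM (1.47, edgeR adjusted p = 1.54e-06), the sialidase *NEU1* from 36.1, 32.8 and 26.6 CPM to 90.3, 85.0 and 98.4 CPM (1.52, adjusted p = 1.83e-07), and cathepsin D, *CTSD*, rose by 1.47. Without CTRL replicate 2 or CTRL replicate 3, or with total count scaling, 7 rose, and without NVR replicate 1 there were 8. Of 16 autophagy genes 6 rose, *WIPI1* by 1.35, and *ATG16L1* (-0.42) fell, and 2 rose without CTRL replicate 2, CTRL replicate 3 or NVR replicate 1 or with total count scaling.

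Fatty acid synthesis fell in part, and cholesterol synthesis did not follow it. *SREBF1*, the regulator of fatty acid genes, went from 778, 761 and 677 CPM to 306, 276 and 369 CPM (-1.22, edgeR adjusted p = 4.35e-06), and *FASN* (-1.28), *FADS1* (-0.93), *FADS2* (-0.87), *SCD* (-0.79), *ACLY* (-0.74) and *ACACA* (-0.53) fell, 7 of 14 in all, with *ACSS2* (0.69) and *MID1IP1* (0.50) higher. Of 24 cholesterol genes 6 rose and 2 fell, with *FDPS* at -0.45, beside 14.5% and 15.3% of all tested genes. *TM7SF2*, a sterol reductase, went from 35.1, 30.6 and 24.9 CPM to 156, 121 and 200.4 CPM (2.40, adjusted p = 6.83e-08) and *MSMO1* from 31.2, 29.9 and 30.1 CPM to 55.5, 54.7 and 55.8 CPM (0.86, adjusted p = 4.54e-06). Without CTRL replicate 2, CTRL replicate 3 or NVR replicate 1, or with total count scaling, the cholesterol rises numbered 2.

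The largest rise of a gene with at least 10 CPM was that of *NGFR*, the low-affinity neurotrophin receptor, on chromosome 17 from 49495293 to 49515008. It was at 1.597, 2.34 and 2.18 CPM in CTRL DMSO and at 79.2, 88.9 and 81.0 CPM in the libraries labelled NVR, 40.7-fold by the means (5.34, SE 0.19, edgeR adjusted p = 3.68e-10). Of its partners, *NTRK2* (-0.18) and *SORT1* (-0.09) did not pass and *NTRK3* (-1.34) and *BDNF* (-0.68) fell. *MAGED1* (0.75) and *BEX3* (0.71), which bind the receptor, rose. *BAIAP3*, a factor of dense-core vesicle traffic, went from 4.46, 4.34 and 3.99 CPM to 34.8, 37.8 and 43.0 CPM (3.18, adjusted p = 2.49e-09). Of 14 neuroendocrine and granule genes 5 rose, *PCSK1N* (2.04), *SYP* (1.92), *VGF* (1.62), *CHGB* (1.29) and *SYT1* (0.98), while *CPLX2*, a complexin of synaptic release, went from 1428, 1467 and 1462 CPM to 555, 569 and 597 CPM (-1.34, adjusted p = 2.58e-06) and *ENO2* (-0.56) fell. The granule rises numbered 3 without CTRL replicate 2.

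The other large rises were in *AKAP1-DT*, a lncRNA divergent from *AKAP1* (2.91), *ARMH1* (2.86), *IQCN* (2.76), *HAPLN2* (2.74), *MYO1D*, an unconventional myosin (2.72), and *NECAB2*, a calcium-binding protein (2.68). The other large falls were in *DIO2*, the deiodinase that activates thyroid hormone (-3.53), *SH2D5* (-3.42), *EDN2*, endothelin 2 (-3.21), and *NPTX1*, neuronal pentraxin (-3.099). *MYO1D* was at 3.15, 3.40 and 3.83 CPM against 21.5, 25.1 and 21.7 CPM. *EDN2* was at 35.0, 28.9 and 25.1 CPM against 3.15, 2.63 and 3.89 CPM. None of the 20 lost its call in any alternative that tested it. Some, among them *NGFR*, *SAA1*, *TERT* and *EDN2*, were tested in 21 alternatives and the others in 22.

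The change was then compared with that of ML355 in L1_F cells, a comparison that shares none of the 6 libraries described here. ML355 against L1_F DMSO called 21.3% of tested genes higher and 23.5% lower. The changes differed, by a test of the difference in the model of all 4 groups, in 6093 genes (34.1%). Vector, agent and dose all differ between the pairs of groups, and so does expression along the wide split described above. None of these can be told apart in this difference. Licensing genes differed in 16 of 18, all further down in the libraries labelled NVR, where ML355 had 3 rises and 7 falls (median -0.32 against -1.78). Mitotic kinases and checkpoint genes differed in 25 of 26, again all further down, and ML355 raised 17 of them and lowered 1 (median 0.61 against -0.99). All 12 kinesins differed. *HJURP* rose with ML355 (1.54) and fell in the libraries labelled NVR (-1.98), a difference of -3.53 (adjusted p = 4.31e-10). *CDKN1A* rose in both (1.64 and 1.48), and the difference of -0.16 did not pass (adjusted p = 0.391).

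**Figure D5:**
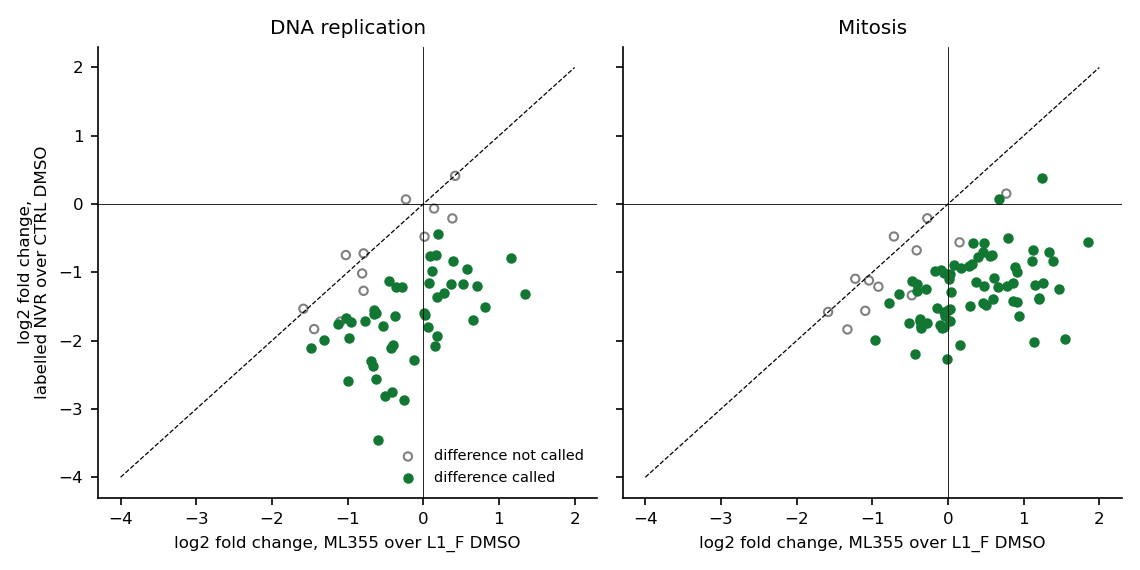
Change on the log2 scale in NVR-labelled over CTRL DMSO libraries (vertical) against that of ML355 over L1_F DMSO (horizontal) for each tested gene of the DNA replication list (left) and the mitosis list (right). Filled points differ between the comparisons at an adjusted p under 0.01, and nearly all lie below the dashed line of equal change.

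The remaining lists differed in both directions. Of 29 p53 targets ML355 raised 24 (median 1.41 against 0.53), and 15 of them differed with the lower value in the libraries labelled NVR. The ATF4 arm had 17 rises with ML355 and 14 members further down in the libraries labelled NVR. Of the 32 interferon-stimulated genes 12 differed with the higher value in the libraries labelled NVR and 1 with the lower. All 13 mitochondrial mRNAs fell with ML355 and all 13 differed. *ALOX12* rose with ML355 (1.96) and differed from its value of -0.20 (adjusted p = 0.000108). *NGFR* was listed at 0 in the mean of L1_F DMSO and averaged 11.1 CPM with ML355.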

How the data were processed

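RNA-seq of NCI-H520 cells was deposited by the authors as 1 table of raw read counts per gene, not normalized. Per the labels and the study's methods, reads were aligned to hg38 with STAR 2.5.3a and counted with HTSeq 0.11.2. The annotation release and the strand setting are not given in the sources used here, so genes that overlap on opposite strands may share reads. The labels and the methods name different library kits. Of 58302 genes in the table, 57532 matched GENCODE 44 for names and coordinates.

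Counts of all 12 libraries were fitted with a mean for each of 4 groups by edgeR 4.0.16 quasi-likelihood tests (R 4.3.3, filterByExpr, TMM, robust), with Benjamini-Hochberg adjusted p under 0.01 as the call and log2 fold changes of the libraries labelled NVR over CTRL DMSO. The study's own test is limma voom, which was run with DESeq2, other scalings and filters, each library left out and a replicate block as alternatives. Centring on 10 by 10 bins of transcript length and GC content was chosen after seeing the data. On simulated counts of 16354 genes the edgeR step recovered 4.48%, 59.7% and 84.8% of changes of 0.5, 1 and 2 on the log2 scale. Intervals and floors cover counting error only.

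Genes named were those the study centres on, the 10 largest rises and falls among called genes of at least 10 CPM whose groups do not overlap, the 5 largest gains and losses of CPM, and up to 3 called genes per list by adjusted p. Further members were named to show a list's range, and these were chosen after their values were seen. Members and lists were chosen with earlier results of these data known. Of 1282 list entries 1279 matched. Some genes are not reported here.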

Additional observations from a re-analysis of the deposited data

Results flagged for a closer look

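The change in the libraries labelled NVR over CTRL DMSO differed from that of ML355 over L1_F DMSO in 6093 genes by the difference term of the edgeR fit. Vector, agent, dose and the wide split between the pairs of groups cannot be told apart in it. The genes below were called in both comparisons with opposite signs, and each value is the first change minus the second on the log2 scale.

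Lower in the libraries labelled NVR and higher with ML355 were *HJURP* (-3.53), *EXO1* (-2.85), *KIF22* (-1.98) and *RNASEH2A* (-1.52), although over the 59 DNA replication genes ML355 had 26 falls and 7 rises. So were *APOBEC3B* (-2.47), *TCF7* (-3.07), *NRG1* (-3.85), *AXL* (-1.98), *EDN2* (-4.95), *FLNA* (-1.55) and *CLDN1* (-2.25), and the stress genes *PLK2* (-2.30), *STC2* (-2.44) and *TRIB3* (-2.30). Of these, *TCF7*, *NRG1* and *EDN2* had low means in L1_F DMSO, at 0.105, 0.228 and 0.535 CPM.

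5 mitochondrial mRNAs went the other way, higher in the libraries labelled NVR and lower with ML355: *MT-CO2* by 4.90, *MT-ATP6* by 4.54, *MT-CO1* by 3.38, *MT-ND4* by 2.52 and *MT-ND6* by 2.395. In lipid and drug metabolism the same held for *PTGES* (3.10), *ALOX5* (2.38), *TM7SF2* (3.22), *AKR1C1* (3.10) and *EPHX1* (1.74). It also held for *IFI44* (2.715), *CD55* (2.11), *CD14* (3.22), *RARRES1* (3.81), *FZD4* (2.27), *GRN* (1.995) and *CASP9* (1.17).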

How the results depend on the processing

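Of 2593 genes higher and 2723 lower, 1257 and 1087 also changed by at least 1 on the log2 scale, and 3918 were higher at an adjusted p under 0.05. Leaving out 1 library gave 1602 to 2995 higher, 1824 to 3111 lower and 5099 to 6432 for the difference from ML355, with 1602 higher without CTRL replicate 2 and 1622 without CTRL replicate 3. Total count scaling gave 1825 higher and 3208 lower, a shift of the split towards lower. DESeq2 gave 3368 and 2940, limma voom 2747 and 2806, and the fit of the 6 libraries alone 2071 and 2102. The replicate block gave 2274 and 2480. Deviations from the group mean gave no sign of pairing between libraries of equal number (correlations 0.0514, 0.17 and -0.354). These deviations also follow transcript length, so the values cannot decide whether equal numbers share a passage. Of the named-gene results 2399 were counted as unchanged, 38 lost the call, 5 gained it and 0 called ones reversed. Genes that were not called could change sign and still count as unchanged. *CTNNB1* ran from -0.09 to 0.29 and *WNT5A* from -0.25 to 0.20 over the alternatives. The ribosomal protein, lysosomal, autophagy, cholesterol and heat shock counts were among those that moved by over 1.5 times with a control library left out. The cause was not tested.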
